A study of Taeniopygia guttata with 39 samples.

Results

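KCNA3, KCNS1, KCNV1 and KCNK5 are 4 genes for subunits of potassium channels that were measured in HVC of female canaries with and without testosterone. They were found as the rows of the deposited table whose RefSeq transcript belongs to 1 of these genes in the zebra finch annotation. Each gene had exactly 1 row, so these are 4 of the 2226 genes that could be named, within a table of 26061 rows. HVC is a forebrain nucleus of songbirds that drives the production of song, and testosterone can induce song in female canaries. The birds were adult females, labelled as non-breeding and kept with 9 h of light and 15 h of darkness a day. Each of the 39 arrays held HVC RNA of 1 bird, labelled as a biological replicate. The treated birds wore a 7-mm Silastic tube of testosterone under the skin, 6 of them for 1 h, 5 for 3 h, 5 for 8 h and 6 each for 3 d, 7 d and 14 d, and 5 control birds wore an empty tube. The labels call the birds of the 7 d and 14 d groups singing and all others non-singing, so the longer treatments and singing cannot be told apart from each other. The design text names canaries and the organism field the zebra finch, so the probes may match the birds' RNA imperfectly, in all groups alike.

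Potassium channels let potassium leave the cell and so pull the membrane potential back toward rest after a spike. Voltage-gated channels of the Kv class are built from 4 alpha subunits and shape spike repolarisation and firing rate. Some Kv subunits form no channel of their own and change the gating of others when they join them. Two-pore-domain channels stay open over a wide range of voltages and set the resting potential and the input resistance of a neuron. Firing of HVC neurons in brief bursts during song is a known feature of this nucleus in the zebra finch. No sequence of these genes was used here, and none is printed. The roles given below are those known from mammals.

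All values are on the log2 scale, where a difference of 1 is a doubling, and "called" means an adjusted p under 0.05 in the limma fit, with Benjamini-Hochberg adjustment over all 26061 rows. All 4 genes were higher after 14 d of testosterone than in controls. None was called at 1 h, 3 h, 8 h, 3 d or 7 d, where the fit called 8.44%, 28.6%, 7.21%, 1.05% and 7.87% of all rows. The changes at 14 d were 1.38 ± 0.32 for KCNK5, 0.64 ± 0.17 for KCNS1, 0.51 ± 0.14 for KCNV1 and 0.38 ± 0.16 for KCNA3 (SE; 6 birds against 5). The background was high: 50.0% of all rows were called at 14 d, 39.1% as higher and 10.9% as lower, so 4 of 4 is read against a change that took in much of the table. With each array centred on its own median 3 of the 4 genes were called, where 20.3% of rows were higher and 22.8% lower. After quantile normalisation 2 of the 4 were called, beside 23.0% of rows as higher. The median change over the 4 genes was 0.57, and over all rows it was 0.22.

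The arrays differed in overall level, and this touches every result below. The median of all rows on an array ran from 7.49 to 7.91. At 14 d it averaged 7.82 ± 0.05 (SD, n = 6), against 7.59 ± 0.08 (n = 5) in controls. The means of the 1 h, 3 h and 7 d groups lay between 7.69 and 7.72, and those of the 8 h and 3 d groups between 7.57 and 7.58. Replicate 2 of the 3 h group stood apart, since its median correlation to all others was 0.886, where each remaining array reached at least 0.963. Bird numbers in the titles of the controls lie in a range that holds no treated bird, so that range and treatment cannot be told apart in any comparison with control. The 8 h and 3 d birds share a range of their own, and the 1 h, 3 h, 7 d and 14 d birds share another. In a comparison across these ranges, range and duration likewise cannot be told apart.

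KCNK5 encodes a two-pore-domain subunit whose channel is opened by alkaline pH and is best known from kidney and from brainstem cells that sense carbon dioxide. Its level at 14 d lay between 9.13 and 9.71, with a median of 9.48, against 8.13, 8.54, 7.39, 8.25 and 7.97 in the 5 control birds. Every 14 d bird was above every control bird. All 14 d array medians also lay above all control medians. The share of all rows separated from the controls in this way was not counted, here or for the genes below. The difference of 1.38 is a 2.60-fold higher signal (adjusted p = 0.0011), and it was larger than the change of 99.8% of all rows. The same share was 89.0% for KCNS1, 77.3% for KCNV1 and 64.6% for KCNA3. With the table split into 5 equal classes by mean level, rows of the class that holds KCNK5 had a median change of 0.17. With each array centred on its own median the difference was 1.15 (adjusted p = 0.0030), and after quantile normalisation 1.25 (adjusted p = 0.0025).

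At 1 h KCNK5 had a lowest value of 7.33, a median of 9.36 and a highest of 9.74, and a mean of 8.90 ± 1.01 (SD, n = 6) against 8.06 ± 0.43 (n = 5) in controls. Birds 1 to 4 of this group, at 9.28, 9.74, 9.68 and 9.44, lay above all controls, while birds 5 and 6, at 7.96 and 7.33, lay within or below the control range. The 4 high birds had array medians of 7.73 to 7.85, and the 2 low birds of 7.65 and 7.49. The change at 1 h was 0.85 ± 0.32 (SE) and was not called (adjusted p = 0.0765). It was called without 1 h replicate 6 (1.16, adjusted p = 0.0055) and without 1 h replicate 5 (1.04, adjusted p = 0.0386). The same held without control replicate 2 (0.97, adjusted p = 0.0496) and without the 3 h replicate 2 in the shared fit (0.85, adjusted p = 0.0392). Of all rows, 7531, 2682, 3862 and 5130 were called at 1 h in these fits in turn, against 2199 with all arrays.

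At 3 h the 5 birds were at 8.70, 10.10, 8.71, 8.54 and 8.21 for KCNK5, so replicate 2 was higher by more than 1 than any other bird of its group. The change was 0.79 ± 0.33 (SE; adjusted p = 0.0664), and 0.48 without that replicate. It was called without control replicate 2 (0.92, adjusted p = 0.0451) or 3 h replicate 5 (0.95, adjusted p = 0.0360). Of all rows, 8501 and 8664 were called at 3 h in these fits in turn, against 7459 with all arrays. The 8 h birds lay between 8.25 and 9.00, and the 3 d birds within 8.20 and 8.40, the narrowest spread of any group for this gene (SD 0.09, n = 6). At 7 d, 4 birds lay between 8.05 and 8.31, replicate 2 at 8.82 and replicate 6 at 9.58. The last of these also had the highest array median of its group, 7.87. The changes of 0.45 at 8 h, 0.27 at 3 d and 0.50 at 7 d were not called.

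KCNS1 encodes a silent Kv subunit that forms no channel alone and modifies channels of the Kv2 class, which carry delayed rectifier current in many neurons. At 14 d its lowest value was 6.26, its median 6.41 and its highest 6.90, against 5.92, 6.02, 5.57, 5.86 and 5.72 in the controls. The 2 groups did not overlap. The difference of 0.64 corresponds to a 1.56-fold higher signal (adjusted p = 0.0023). After centring it was 0.41 (adjusted p = 0.0112) and after quantile normalisation 0.40 (adjusted p = 0.0109). Rows of its brightness class had a median change of 0.37 before centring.

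The level of KCNS1 was lowest at 8 h and 3 d, the 2 groups whose range of bird numbers no other group shares. Range and duration cannot be told apart when these are compared with the other treated groups. Their mean array medians were also lower than those of the other treated groups. Controls averaged 5.82 ± 0.18 (SD, n = 5). The 1 h group averaged 6.14 ± 0.40 (n = 6), the 3 h group 6.16 ± 0.17 (n = 5), the 8 h group 5.73 ± 0.08 (n = 5), the 3 d group 5.62 ± 0.15 (n = 6) and the 7 d group 6.13 ± 0.45 (n = 6). None of the 5 treated groups differed from control by a called amount. All 5 of the 3 h birds, at 6.03, 6.44, 6.20, 6.11 and 6.02, lay above the highest control, replicate 5 by a margin that 2 decimals do not show. At 3 d KCNS1 was lower than at 3 h by 0.54 (adjusted p = 0.0134, no overlap) and than at 1 h by 0.52 (adjusted p = 0.0235). There 25.2% and 13.9% of all rows were called as lower. The share of all rows without overlap between 3 d and 3 h was not counted. Both KCNS1 differences stayed called with arrays centred (-0.40 and -0.38), and neither was called with the array median as a covariate (-0.098 and -0.092) or with the letter at the end of the bird number in the titles as a term (adjusted p = 0.0578 and 0.0730). The difference between 3 d and 1 h was not called in a fit of these groups alone either (adjusted p = 0.0584). The first lost its call without 3 h replicate 2 (-0.47, adjusted p = 0.0578), and the other without 1 h replicate 1 (-0.45) or 4 (-0.44) or 3 d replicate 3 (-0.50) or 4 (-0.51), with an adjusted p of at most 0.0973. At 1 h the change was 0.33 (adjusted p = 0.167), and it was called without replicate 6 of that group, the bird with the lowest array median (0.46, adjusted p = 0.0255). Without that bird 7531 of all rows were called at 1 h, against 2199 with it.

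KCNV1 encodes another silent subunit, which suppresses or alters Kv2 currents when it joins them. Its values at 14 d ran from 6.59 to 7.29 with a median of 6.84, against 6.22, 6.60, 6.39, 6.21 and 6.42 in the controls. The lowest 14 d bird lay just below the highest control, and all 6 were above the control mean. Rows of the brightness class of KCNV1 had a median change of 0.37. The difference for KCNV1 was 0.51 (1.42-fold, adjusted p = 0.0042). It was 0.28 with arrays centred (adjusted p = 0.0458), and it was not called after quantile normalisation (0.25, adjusted p = 0.0615). At 1 h the birds ran from 6.17 to 7.14 with a median of 6.68 (change 0.30, adjusted p = 0.142). The change was called without 1 h replicate 6 (0.40, adjusted p = 0.0299), beside 7531 of all rows. At 3 h, 8 h, 3 d and 7 d the changes lay between -0.07 and 0.16 and were not called.

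KCNA3 encodes a Shaker-related alpha subunit that forms delayed rectifier channels by itself and is known from lymphocytes and microglia as well as neurons. At 14 d it was at 8.39, 8.43, 8.39, 8.03, 8.08 and 8.05 in birds 1 to 6, against 7.98, 8.30, 7.67, 7.78 and 7.49 in the controls. The groups overlapped through control replicate 2. The difference of 0.38 was called (adjusted p = 0.0408), but it lies close to the median change of 0.33 of the rows of its brightness class. It was not called with arrays centred (0.15, adjusted p = 0.304) or quantile normalised (0.17, adjusted p = 0.300). It also lost its call without control replicate 3 (0.34), 4 (0.37) or 5 (0.29) and without 14 d replicate 1 (0.35), 2 (0.34) or 3 (0.35), with adjusted p from 0.0744 to 0.145.

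The letter that ends the bird number in the titles, L or R, has no meaning given in the labels. Replicates 1 to 4 of the 8 h group and replicates 4 and 6 of the 3 d group have no letter. Every other bird has a letter, so letter and duration are partly tied in any comparison with 8 h or 3 d. The letters were uneven elsewhere too, with L for 4 of 5 controls, 1 of 5 birds at 3 h and 1 of 6 at 7 d. Letter and duration are therefore also partly tied at 3 h and 7 d against control, and at 14 d against either 7 d or control. At 14 d the 3 birds with L were replicates 1 to 3 and held the 3 highest KCNA3 values, with a mean of 8.40, while the 3 birds with R averaged 8.05. Among birds with L, KCNA3 was higher at 14 d than in controls by 0.52, KCNS1 by 0.67, KCNV1 by 0.63 and KCNK5 by 1.24 (3 birds against 4). Among birds with R there was 1 control, and the differences were 0.38, 0.79, 0.37 and 2.02 in the same order of genes. With the letter as a term in the fit, all 4 genes were called at 14 d against control. So were 12538 of all rows, against 13034 in the fit without the letter. That term ended the calls at 14 d against 8 h of KCNK5 (0.97, adjusted p = 0.107) and KCNA3 (0.43, adjusted p = 0.147). It also ended the call at 14 d against 7 d of KCNK5 (0.90, adjusted p = 0.0623). Without the term these differences were 0.93, 0.38 and 0.88. Most 8 h birds have no letter, so against 8 h the letter and the duration can hardly be told apart.

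**Figure D1:**
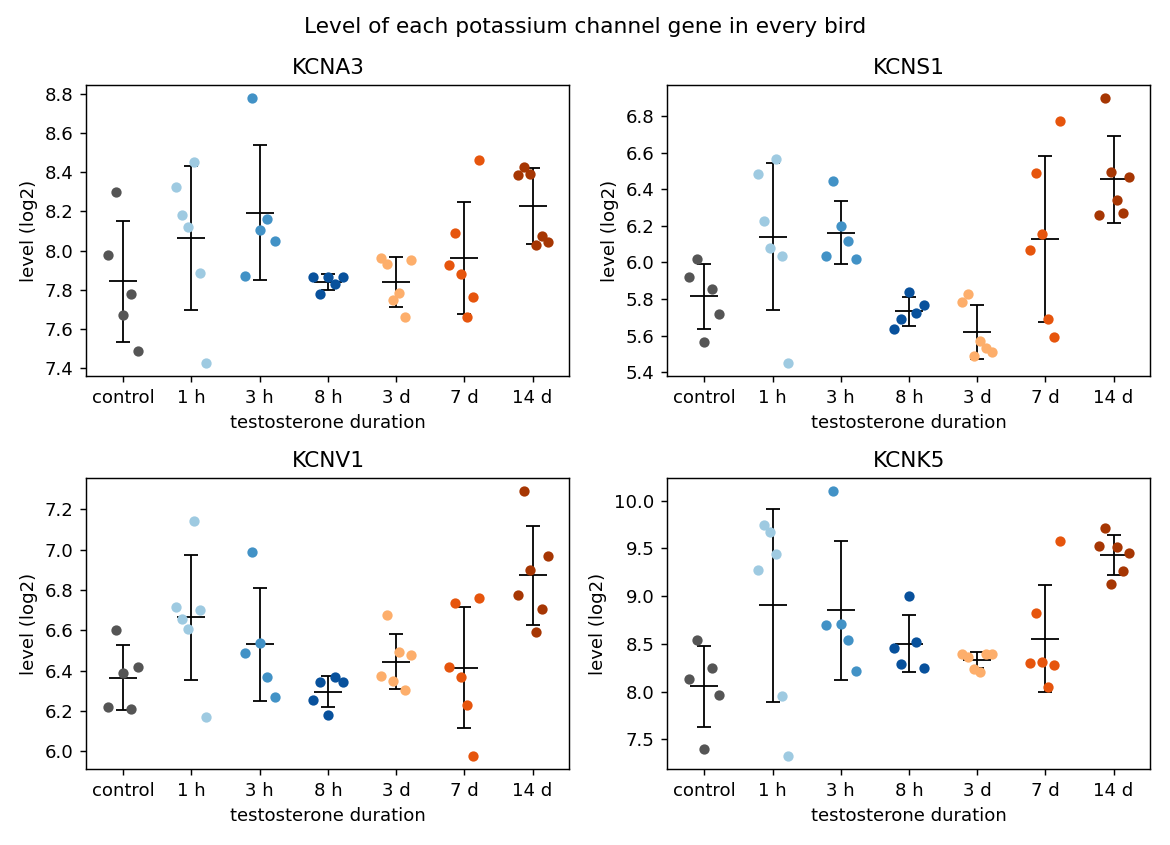
Level of each gene (log2, y axis) in every bird of the 7 groups (x axis, control and then rising duration). Points are birds in the order of their replicate numbers, and black bars give the group mean with 1 SD. The 14 d group is the highest by mean in each panel, KCNK5 splits at 1 h into 4 high birds and 2 low ones, and 3 h replicate 2 stands at 10.10 for KCNK5.

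Under the deposited values the order of the 7 group means was alike in its upper end for the 4 genes. With the array median subtracted from each bird, KCNK5, KCNS1 and KCNV1 were still highest at 14 d. KCNA3 was then highest at 3 h (0.47, against 0.41 at 14 d). The orders that follow are those of the deposited values. For KCNK5 the order ran 14 d, 1 h, 3 h, 7 d, 8 h, 3 d and control. For KCNS1 it ran 14 d, 3 h, 1 h, 7 d, control, 8 h and 3 d. For KCNV1 it ran 14 d, 1 h, 3 h, 3 d, 7 d, control and 8 h, and for KCNA3 14 d, 3 h, 1 h, 7 d, control, 3 d and 8 h. No difference between neighbours in any of these orders was called in the limma fit, the smallest adjusted p being 0.214, for KCNS1 at 7 d against control. The 14 d, 3 h and 1 h groups lead each of these orders, and they also had the highest mean array medians (7.82, 7.72 and 7.71). Lower down the match was incomplete. For KCNV1 the 3 d group stood above 7 d, and for KCNK5 the controls stood below 8 h and 3 d.

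The 14 d group could also be set against the other treated groups, without the controls. The 8 h and 3 d birds have another range of bird numbers than the 14 d birds, so range and duration cannot be told apart there. The 1 h, 3 h and 7 d birds share the range of the 14 d birds. All 4 genes were higher at 14 d than at 8 h, where KCNK5 differed by 0.93, KCNS1 by 0.72, KCNV1 by 0.58 and KCNA3 by 0.38, and the 2 groups overlapped for none of them. For 31.7% of all rows every 14 d bird lay above every 8 h bird. All 4 were likewise higher than at 3 d, by 1.10, 0.84, 0.43 and 0.38 in the same order. The background was again high, with 38.2% of all rows higher than at 8 h and 40.3% higher than at 3 d, and after centring 2 of 4 genes were called in each, beside 18.0% and 20.1% of rows. KCNA3 lost its call against 8 h without any 1 of the 8 h birds or of 14 d replicates 1 to 3 (0.34 to 0.39), and against 3 d without 14 d replicate 1, 2 or 3 or 3 d replicate 3, 4 or 5 (0.34 to 0.37). Against 7 d, KCNV1 was higher by 0.46 (adjusted p = 0.0250) and KCNK5 by 0.88 (adjusted p = 0.0489), where 11.6% of rows were called as higher. Neither was called after quantile normalisation, with adjusted p of 0.0675 and 0.0632. Against 1 h and against 3 h none of the 4 was called, and the 14 d birds overlapped with each of these groups for all 4 genes. There 0.530% and 3.25% of rows were called as higher. At an unadjusted p under 0.05 there were 0 of the 4 genes and 22.4% of rows against 1 h, and 1 of the 4 and 23.7% against 3 h.

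KCNV1 at 14 d against 7 d lost its call without 14 d replicate 2 (0.37) or without 7 d replicate 3 (0.45), 4 (0.42) or 5 (0.37), with adjusted p from 0.0508 to 0.0903. The KCNK5 difference lost its call without any 1 of the 14 d birds (0.82 to 0.94) and without 7 d replicate 1 (0.83), 3 (0.83), 4 (0.78) or 5 (0.82). It was not called with each array centred (0.75, adjusted p = 0.0703). With the array median as a covariate neither difference was called, KCNV1 at 0.18 and KCNK5 at 0.23, and none of the 4 genes was called at 14 d against 8 h or 3 d.

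Between 3 d and 7 d, the interval in which the labels change from non-singing to singing, KCNS1 was higher at 7 d by 0.51 (adjusted p = 0.0250). These 2 groups also differ in their range of bird numbers, so range and duration cannot be told apart. The 7 d values of KCNS1 ran from 5.59 to 6.78 with a median of 6.11, against 5.49 to 5.83 with a median of 5.55 at 3 d. The groups overlapped, since 2 of the 7 d birds lay within the 3 d range, and 10.9% of all rows were called as higher. The call was lost without 7 d replicate 2 (0.44) or 6 (0.38) and without 3 d replicate 3 (0.48) or 4 (0.50), with adjusted p from 0.0502 to 0.111. With the array median as a covariate the difference was 0.16 (adjusted p = 0.271). With the title letter as a term it was 0.49 (adjusted p = 0.115), and in a fit of the 2 groups alone its adjusted p was 0.0506. The other 17 of 20 tests between neighbouring durations were not called. Of all rows, 5.46% were called between 3 h and 1 h, 31.9% between 8 h and 3 h and 0.414% between 3 d and 8 h.

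The 7 d and 14 d groups together were compared with the 1 h and 3 h groups, which share their range of bird numbers. No gene of the 4 was called, against 1.92% of all rows, and none had an unadjusted p under 0.05, against 12.7% of rows. The differences were 0.12 ± 0.22 for KCNK5, 0.14 ± 0.11 for KCNS1, 0.05 ± 0.10 for KCNV1 and -0.03 ± 0.11 for KCNA3 (SE; 12 birds against 11).

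The durations without a call were looked at in more detail. In the limma fit 2 of the 4 genes had an unadjusted p under 0.05 at 1 h, beside 31.8% of all rows, and 2 at 3 h, beside 44.8%. At 8 h, 3 d and 7 d there were 0, beside 20.7%, 11.6% and 27.0% of rows. With array weights, which give less weight to arrays that vary more, all 4 genes were called as higher at 1 h (KCNK5 1.37, KCNS1 0.38, KCNA3 0.34 and KCNV1 0.33), beside 10941 of all rows. Without control replicate 2, KCNA3 was called at 3 h (0.46, adjusted p = 0.0342), beside 8501 of all rows. A test for a difference at any duration called KCNS1 (adjusted p = 0.00044), KCNV1 (0.0071) and KCNK5 (0.0072) but not KCNA3 (0.0743), where 67.9% of rows were called.

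**Figure D2:**
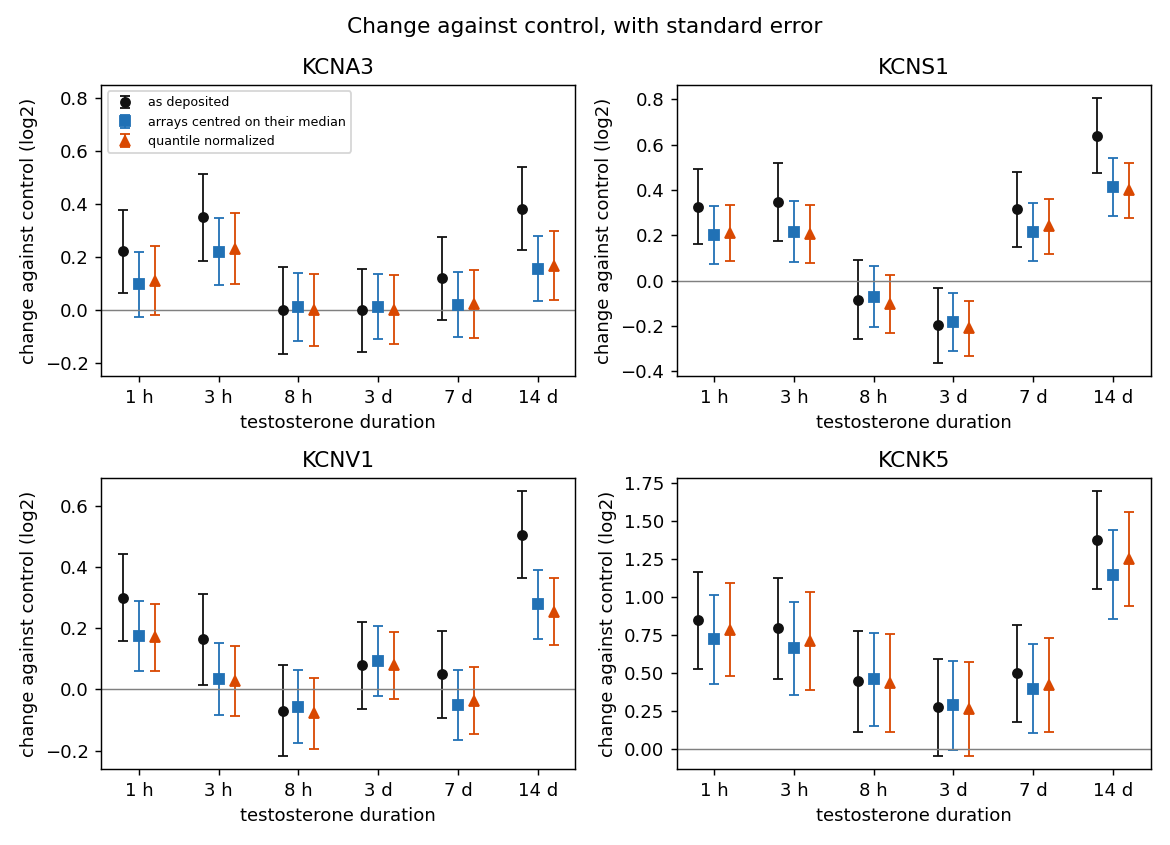
Change of each gene against control (log2, y axis) at the 6 durations (x axis) in the limma fit, with bars of 1 SE, for values as deposited, with each array centred on its median and after quantile normalisation. The 14 d change is the largest for each gene under the deposited values. Centring lowers it by the same amount for every row, from 0.38 to 0.15 for KCNA3 and from 1.38 to 1.15 for KCNK5.

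The 4 genes followed the array median from bird to bird within the groups as well as between them. Taken over the 39 arrays as deviations from group means, a rise of 1 in the array median went with a rise of 5.08 in KCNK5, 3.09 in KCNS1, 2.75 in KCNA3 and 2.17 in KCNV1. These are descriptions without a test. The same slope was not worked out for other rows, so it is not known whether slopes of this size are particular to the 4 genes. Centring an array removes a slope of 1 only, so it leaves part of this relation in place. With the array median as a covariate in the fit, no gene of the 4 was called at 14 d: KCNK5 was 0.22 (adjusted p = 0.863), KCNV1 0.01, KCNS1 -0.06 and KCNA3 -0.25, where 184 of all rows were called. All 14 d medians lay above all control medians, from 7.78 to 7.91 against 7.50 to 7.70. These 2 groups alone can therefore hardly separate the covariate from the 14 d treatment. The slope was fitted over all 39 arrays. Of these, 1 h replicates 1 and 4 and 7 d replicate 6 had medians within the 14 d range (7.80, 7.85 and 7.87). On them KCNK5 was at 9.28, 9.44 and 9.58 and KCNS1 at 6.49, 6.57 and 6.78. KCNV1 was at 6.72, 7.14 and 6.76 there, and KCNA3 at 8.32, 8.45 and 8.46. The part of the array level in the 14 d result was not tested beyond this.

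**Figure D3:**
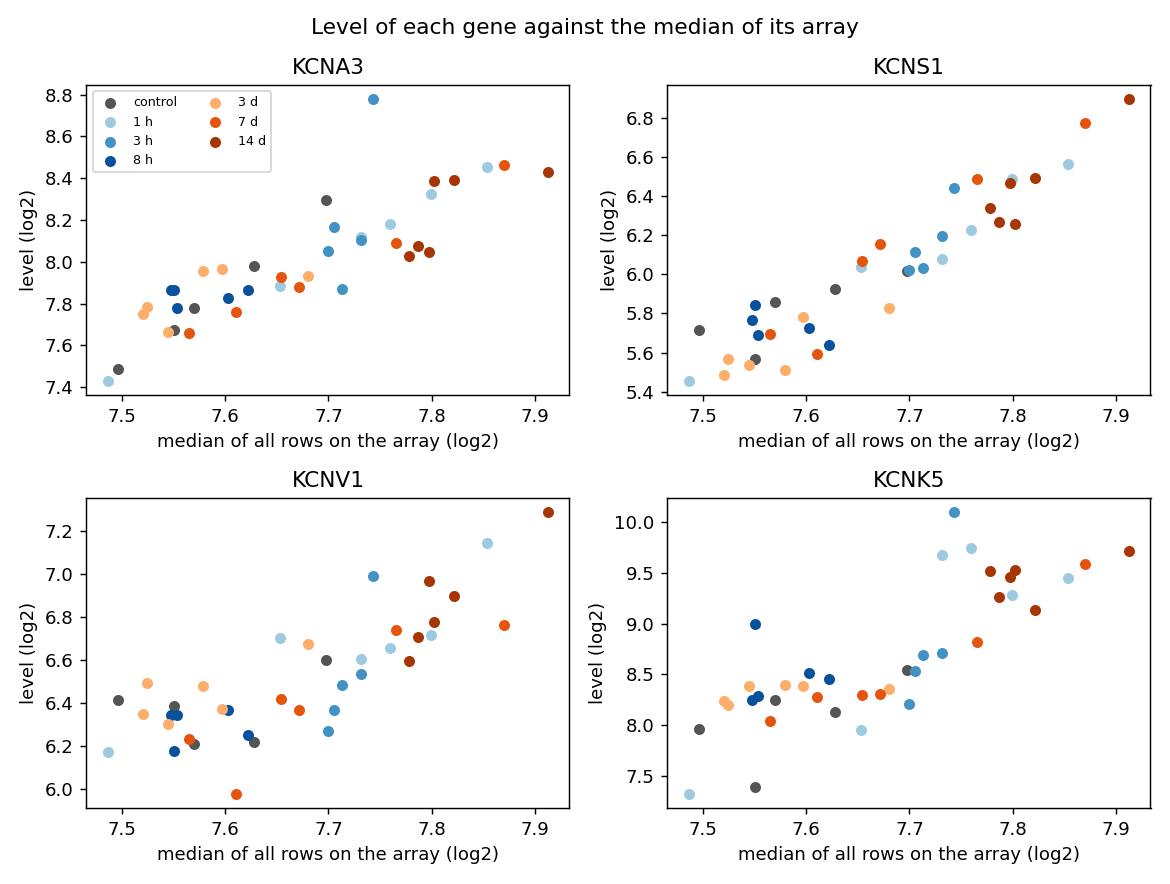
Level of each gene (log2, y axis) against the median of all rows on the same array (log2, x axis), 1 point for each bird, coloured by group. In each panel birds with brighter arrays have higher levels, and the 14 d birds hold array medians from 7.78 to 7.91, all above the controls.

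Of other genes for potassium channels and their partners, 14 could be named in the table. At 14 d, 3 of them were called as higher, 1 as lower and 10 not called, beside 39.1% of all rows as higher and 10.9% as lower. Their median change was 0.24 beside 0.22 for all rows. With arrays centred 1 of the 14 was called as higher and 1 as lower, beside 20.3% and 22.8% of rows. KCNK10, a two-pore subunit whose channel responds to lipids and stretch, was higher by 1.12 ± 0.28 (SE; adjusted p = 0.0021). Its 14 d values were 7.79, 8.24, 8.13, 7.78, 7.99 and 8.10, against 6.85, 7.38, 6.95, 6.93 and 6.33 in controls, with no overlap. It stayed called with arrays centred (0.89, adjusted p = 0.0053) and, like the 4 genes above, lost its call with the array median as a covariate (-0.17).

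KCNK12, a two-pore subunit that carries little or no current alone, was called as higher at 7 d (0.50, adjusted p = 0.0072) and 14 d (0.38, adjusted p = 0.0068). Its 7 d values ran from 8.05 to 8.55 with a mean of 8.29, and no control exceeded 7.96. At 7 d it remained called with arrays centred (0.40, adjusted p = 0.0183), whereas at 14 d it did not (0.15, adjusted p = 0.246). At 1 h it was called at 0.38 (adjusted p = 0.0373), not so after centring (0.25, adjusted p = 0.123), and it lost that call without control replicate 1, 4 or 5 or 1 h replicate 1, 2 or 4, with changes within 0.32 to 0.43 over all arrays left out. KCNG2, another silent Kv subunit, was called at 14 d (0.32, adjusted p = 0.0418) but not with arrays centred (0.10, adjusted p = 0.565), and leaving out any of 8 single arrays ended the call, with changes of 0.26 to 0.40 over all arrays left out.

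DPP6, an auxiliary subunit that brings Kv4 channels to the membrane and speeds them, moved the other way. At 3 h its 5 birds were at 7.60, 7.50, 7.71, 7.94 and 7.64, against 8.26, 8.21, 8.24, 8.41 and 8.00 in controls. The 2 groups did not overlap, and the change was -0.54 (adjusted p = 0.0013), or -0.67 after centring (adjusted p = 0.00060). It kept its call there without any single array but lost it in a fit of these 2 groups alone. DPP6 was also lower at 3 d (-0.43, adjusted p = 0.0354) and 14 d (-0.27, adjusted p = 0.0325), and these shared the same 5 controls. The 14 d change was -0.50 after centring (adjusted p = 0.0023), but -0.16 and not called with the array median as a covariate (adjusted p = 0.710). It ran from -0.33 to -0.23 with single arrays left out, not called without control replicate 1, 3 or 4 or 14 d replicate 1 or 3. The 3 d change was -0.41 after centring and not called there (adjusted p = 0.0926). It ran from -0.48 to -0.36 with single arrays left out, without a call in the absence of control replicate 1, 2, 3 or 4 or 3 d replicate 1, 3 or 6.

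The sodium-activated channel gene KCNT1 was lower at 8 h by 0.41 (adjusted p = 0.0385), and with arrays centred the change was -0.40 (adjusted p = 0.0568). It ran from -0.46 to -0.36 with single arrays left out and lost its call without control replicate 1, 2 or 3 or 8 h replicate 1, 4 or 5. The inward rectifiers KCNJ2, KCNJ4, KCNJ6 and KCNJ13 were not called at any single duration against control. Nor were KCNC1, whose fast Kv3 channels allow rapid firing, KCNA10, KCNG3, KCNK9 and KCNQ1. The test for a difference at any duration did call KCNK9 (adjusted p = 0.0030), KCNJ6 (0.0053), KCNQ1 (0.0066) and KCNA10 (0.0073). It called 67.9% of all rows. KCNQ1 had group means from 2.13 to 2.59, under the 5th percentile on each array, a limit that lay between 3.43 and 4.14, and changes are uncertain there. KCNA3, KCNS1, KCNV1 and KCNK5 all lay above that limit.

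Of other excitability genes only SCN3B, CACNA2D3 and CACNG1 could be named. CACNG1, which encodes a gamma subunit of calcium channels known best from skeletal muscle, was higher at 14 d by 0.72 (adjusted p = 8.87e-05) and kept its call with arrays centred (0.49), but not with the array median as a covariate (0.31, adjusted p = 0.144). At 1 h it was higher by 0.42 (adjusted p = 0.0275), with changes of 0.33 to 0.49 over single arrays left out and no call without control replicate 1, 4 or 5 or 1 h replicate 1, 2 or 4. SCN3B, a beta subunit of sodium channels, was higher at 1 h by 0.42 (adjusted p = 0.0418) and was not called with arrays centred (0.29, adjusted p = 0.109). Its change ran from 0.33 to 0.51 and lost its call without control replicate 1, 4 or 5 or 1 h replicate 1, 2, 3 or 4. With the array median as a covariate, or in a fit of the 1 h and control groups alone, KCNK12, CACNG1 and SCN3B were not called at 1 h. The covariate also ended the 14 d calls of KCNK12 (0.21) and KCNG2 (0.20). It left the calls of KCNK12 at 7 d, DPP6 at 3 h and 3 d and KCNT1 at 8 h in place. The title letter as a term ended the calls of KCNK12 at 1 h, KCNT1 at 8 h and DPP6 at 3 d. The 8 h and 3 d groups are those that hold birds without a letter. CACNA2D3, for an auxiliary calcium channel subunit, was not called under the deposited values, and at 14 d it was called as lower after centring (-0.55, adjusted p = 0.0281).

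**Figure D4:**
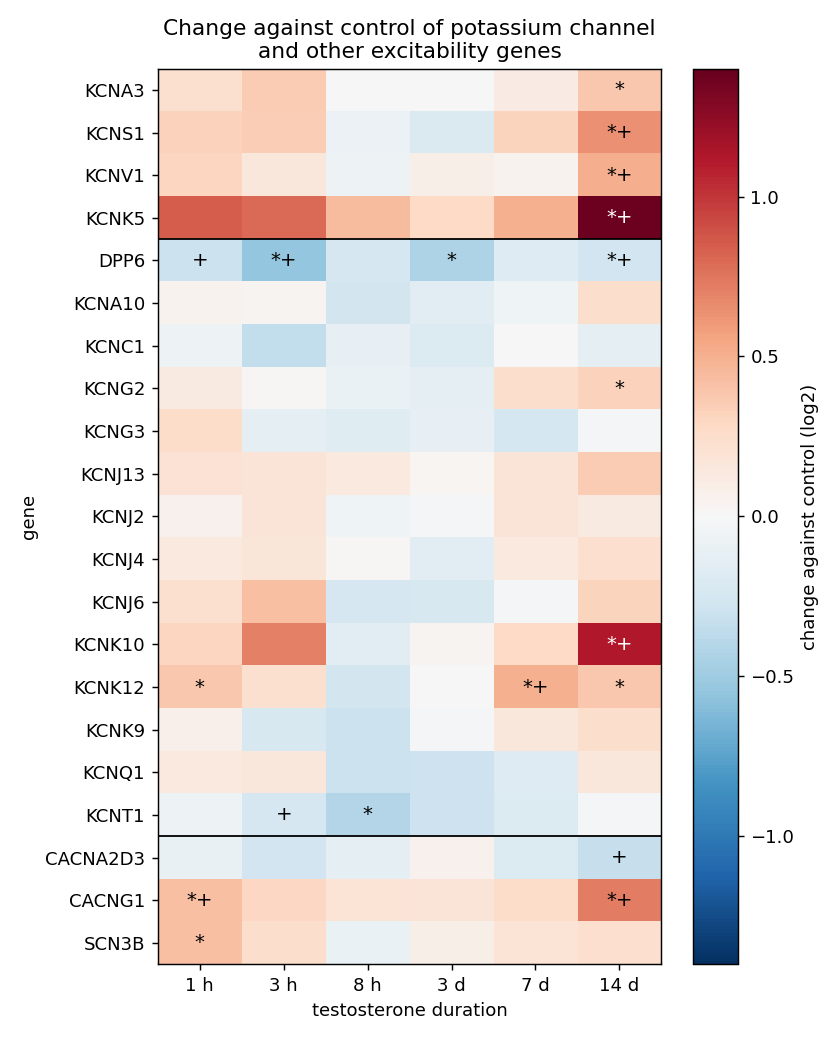
Change against control (log2, colour) at the 6 durations (columns) for KCNA3, KCNS1, KCNV1 and KCNK5 (top block), 14 other potassium channel genes (middle block) and 3 other excitability genes (bottom block). A star marks an adjusted p under 0.05 with the deposited values and a plus sign the same with arrays centred on their median; KCNK5 and KCNK10 have the 2 largest changes at 14 d.

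The named genes whose levels ran most like each of the 4 over the 39 arrays were sought by Pearson's r, after centring each array on its median. For KCNK5 they were MICOS13 (r = 0.886), VPS4B (0.877) and SETD9 (0.873), and for KCNS1 RGS11 (0.882), GK5 (0.877) and RGS9 (0.876). For KCNA3 they were RASSF9 (0.836), CARNMT1 (0.824) and HAT1 (0.820), and for KCNV1 CACNG1 (0.743), SOX14 (0.736) and CLDN18 (0.735). Arrays of one group share their treatment and all genes share the array level, so these values are descriptions. Among the 4 genes themselves r was between 0.525, for KCNA3 with KCNV1, and 0.703, for KCNA3 with KCNK5. After centring, the closest rank that another of the 4 took among the 2225 other named genes was 113, that of KCNK5 for KCNA3. Without centring the values rose to between 0.722 and 0.826.

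HVC was sampled as tissue, so more cells of a type and more RNA per cell cannot be told apart in these levels. Neuronal markers were bright: SNAP25 averaged 11.92, NEFM 10.99 and GAD1 10.72. CYP19A1, which encodes the enzyme that turns testosterone into estradiol, averaged 7.81 and was higher at 14 d by 0.61 (adjusted p = 0.00029). It was 1 of 2 called as higher among 4 markers of HVC and song nucleus neurons. After centring 1 of these 4 was called as higher and 1 as lower. UCHL1 was below the 5th percentile on 19 of 39 arrays, and of 10 neuronal markers listed 4 could be named. The summed level of those 4 ran from 12.77 to 13.02 at 14 d, against 12.37 to 12.74 in controls, without overlap. At 3 h (12.78 to 13.16) and 7 d (12.82 to 12.99) it did not overlap with the controls either. These sums were taken over unlogged levels and without centring. The brighter SNAP25 and NEFM therefore weigh far more in them than ELAVL4 (mean 9.10) and ENO2 (mean 8.41). The share of all rows separated from the controls in this way was not counted. The median change of the 4 markers at 14 d was 0.15, and -0.08 after centring. Within that list NEFM was higher at 14 d (0.83, adjusted p = 0.0034) and ELAVL4 lower (-0.37, adjusted p = 0.0014), while ENO2 and SNAP25 were not called. The summed levels of 3 astrocyte, 2 GABA neuron and 3 ependymal markers and the single oligodendrocyte and endothelial markers overlapped between the 14 d birds and the controls, and no microglial or erythrocyte marker could be named. Of the astrocyte markers GJA1 was lower at 14 d (-0.31, adjusted p = 0.0368), and after centring so were GJA1 (-0.54) and AQP4 (-0.36), as were the GABA neuron marker GAD1 (-0.34) and the estrogen receptor gene ESR1 (-0.76). The part of cell composition in the change of the 4 genes was not tested.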

How the data were processed

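RNA of dissected HVC was purified (RNeasy Micro kit) and amplified (Ambion WT Expression Kit) before it was hybridised to Affymetrix arrays, per the labels. The deposited values are log2 values computed by the authors, 1 per row and array, a scale inferred from their range of 0.77 to 14.09. The submitters' processing notes name Affymetrix Expression Console and affy without versions. The method of probe summary and normalisation was not given in the sources used here; no further scaling was applied in the reported fit. Rows were paired with genes by unversioned RefSeq transcripts (zebra finch, bTaeGut7.mat): 2471 of 26061 rows matched, 2234 of them with an official symbol. The number of arrays limits the precision.

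limma 3.58.1 in R 4.3.3 fitted 7 group means to all 39 arrays, with eBayes and Benjamini-Hochberg adjustment over all 26061 rows in each contrast. Tests were two-sided. Contrasts were each duration against control, any duration (moderated F), all 21 pairs of groups, and 7 d and 14 d against 1 h and 3 h. Other genes named are up to 4 called members per direction, list and duration, and the 3 most alike genes of each of the 4. The members, lists and alternatives were chosen with earlier results of these data known. The code was tested on simulated data. The summed level of the song nucleus markers is not reported here. Birds are separate replicates by their labels, and no 2 arrays were identical. Alternatives changed normalisation, array level, filter, fit, threshold and arrays. Figures were drawn with Python 3.11.15 and matplotlib 3.10.9.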

Additional observations from a re-analysis of the deposited data

Results flagged for a closer look

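KCNS1 in 14 d replicate 2, at 6.90, lay farther above the other 14 d birds than Dixon's test for a single outlying value allows, and so did KCNK5 in 3 h replicate 2, at 10.10. Chance alone marks about 1 in 20 groups in this way, and 28 groups of birds were examined. The first of these birds has the highest median of all arrays, and the other is the array with the lowest correlation with the rest.

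Changes differed between neighbouring durations in the limma fit for KCNS1, higher at 7 d than at 3 d by 0.51, and for KCNV1 (0.46) and KCNK5 (0.88), both higher at 14 d than at 7 d.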

How the results depend on the processing

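Of KCNA3, KCNS1, KCNV1 and KCNK5, 4 were called at 14 d, 0 at each shorter duration and 3 over any duration. Quantile normalisation called 2 at 14 d, beside 23.0% of rows as higher, and 2 over any duration. Centring called 2 over any duration. Leaving out the dimmest 25% of rows, KCNS1 among them, called 2 over any duration. The share of all rows called over any duration was 67.9% as deposited and is not given for any alternative. Nor is the share at 14 d given for the replicate number as a block. The counts under these settings therefore have no background beside them. With the array median as a covariate 0 were called at 14 d and 0 over any duration. Array weights called 4 at 1 h, where the rows called numbered 10941 against 2199. With 1 array left out the counts were 0 to 3 at 1 h and 0 to 2 at 3 h. The array median as a covariate turned several called differences at 14 d: KCNA3 (-0.25), KCNS1 (-0.065) and KCNK10 (-0.17) against control, KCNA3 (-0.28), KCNS1 (-0.022) and KCNK5 (-0.29) against 8 h, and KCNA3 (-0.28), KCNV1 (-0.098) and KCNK5 (-0.13) against 3 d. It also turned uncalled ones, for KCNA3 at 1 h (-0.12), 3 h (-0.0079), 8 h (0.034), 3 d (0.037) and 7 d (-0.16), KCNS1 at 1 h (-0.062) and 3 h (-0.056), KCNV1 at 3 h (-0.12) and 7 d (-0.17) and KCNK5 at 7 d (-0.013). For 7 d and 14 d against 1 h and 3 h it gave KCNV1 -0.034 and KCNK5 -0.069. Other sign changes concerned uncalled values near 0. For KCNA3 they came at 8 h (0.011 centred, 0.022 weighted) and 3 d (0.00092 quantile, 0.012 centred, 0.015 weighted), for KCNV1 at 7 d (-0.036 quantile, -0.051 centred), and for KCNK5 at 7 d and 14 d against 1 h and 3 h (-0.11 weighted). With 1 array left out KCNA3 ran from -0.092 to 0.11 at 8 h and from -0.091 to 0.11 at 3 d, and KCNV1 from -0.020 to 0.14 at 7 d. For 7 d and 14 d against 1 h and 3 h KCNA3 then ran from -0.099 to 0.038, KCNV1 from -0.0035 to 0.10 and KCNK5 from -0.041 to 0.27. The cause of these shifts was not tested. The replicate number as a block called 4 genes at 14 d and 0 at each shorter duration, turned KCNA3 at 3 d (0.0084) and ended the calls of KCNG2 and DPP6 at 14 d, DPP6 at 3 d and KCNT1 at 8 h, among 53 gene results. The labels used here give no link between same-numbered birds but the number. Their deviations from group means correlated at 0.028 on average over 111 pairs, and those of birds with other numbers at -0.0042 over 540 pairs. Of 39 arrays, 12 correlated best with their own number, and the number to be met by chance was not worked out. Averaging rows of a gene was not run, since each of the 4 genes has 1 row. Over all rows, 13034 were called at 14 d and 184 with the covariate. With 1 array left out the calls ran from 378 to 7531 at 1 h, 2490 to 8664 at 3 h (7459 with all arrays), 1240 to 3282 at 8 h (1878), 117 to 714 at 3 d (273) and 805 to 4209 at 7 d (2052). Fits of 2 groups alone called 253 at 1 h, 247 at 3 h and 3911 at 8 h, and the title letter as a term left 301 at 8 h and 767 at 7 d. Most 8 h birds have no letter, so letter and duration can hardly be told apart at 8 h. The number of arrays, and the overlap of array median with treatment, limit what these comparisons can show.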
